A study of Mus musculus with 30 samples.

Results

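Cultures labelled as osteoclasts from Terc-/- mice were compared with wild-type (WT) cultures of the same label, both from animals handled at 1 month of age. The libraries were chosen from their titles: 1-month cultures labelled as carried to large multinucleated cells, with no additional set tag. This gave Terc-/- libraries 1, 2 and 4 and WT libraries 1, 3 and 4, or 6 of the 30 libraries of the series. Mice were C57BL/6J in every group, so the groups differ by label in the Terc allele alone. Bone marrow-derived macrophages were grown in medium holding 10% serum with 2 added factors, RANKL (100 ng/ml) and M-CSF (25 ng/ml), and the harvest was set by the appearance of the cells rather than by a day. Poly(A) RNA was sequenced and reads were counted per gene. Of 50686 annotated genes, 15310 had enough reads to be tested, and all of them are covered below. The series also holds 6-month Terc-/- and 6- and 20-month WT cultures, WT cultures stopped after 2 days, and another set of 1-month libraries, Terc-/- with a 519 prefix and WT with a D1 tag, whose tags the labels do not explain. The labels do not say that replicates came from separate animals, so the spread between libraries behind the p-values may be technical. That spread was estimated within the groups of all 30 libraries, not from the 6 compared alone.

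Terc encodes the RNA template of telomerase, the enzyme that extends chromosome ends, and mice without it lose telomere length over generations. The osteoclast is the bone-resorbing cell: macrophage precursors receive M-CSF through Csf1r and RANKL through Tnfrsf11a (RANK), induce Nfatc1, fuse through Dcstamp and Ocstamp, and seal onto bone with a podosome ring. They then secrete acid through a V-ATPase and proteases such as cathepsin K. Precursors leave the cell cycle as they fuse, while macrophages that do not fuse keep phagocytic receptors, complement genes and the capacity to divide.

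The 6 libraries held 17336361 to 25147975 counts. Terc had 0 counts in each of them, which allows at most 0.119 to 0.173 CPM (counts scaled to a common library size; the value of 3 counts), and this checks no label because WT was also at 0 and the libraries were built on oligo(dT). The Y-linked Ddx3y was read in all 6 and Xist did not exceed 0.146 CPM in any. The WT libraries with the D1 tag were the opposite, with Xist between 847 and 936 CPM and Ddx3y at 0, and there sex cannot be told apart from genotype. Replicates of a group differed by more than counting noise in all 6 pairs (chi-square per degree of freedom 3.21 to 22.3). A set of 10 osteoclast markers was used to check the label. In Terc-/- the highest of the 3 libraries lay below the lowest 2-day WT library for 10 of 10 markers. In 1-month WT this held for 9 of 10, Oscar being the exception. The 2-day libraries came from 6- and 20-month mice. For all 10 the 1-month WT libraries also lay below the 6- and 20-month multinucleated WT libraries. Calcr, the calcitonin receptor of mature osteoclasts, reached 0.573 CPM at most in 1-month WT and 0.0499 CPM in Terc-/-. By these 10 markers the RNA did not bear out the label of large multinucleated osteoclasts in either group. In RNA from whole cultures, fewer osteoclasts and less of each transcript per osteoclast cannot be told apart.

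At an adjusted p under 0.05 (edgeR's quasi-likelihood test, Benjamini-Hochberg over all 15310 genes), 3162 genes were higher in Terc-/- (20.7% of those tested) and 3178 were lower (20.8%). Below, "rose" and "fell" are used of genes past this threshold, fold changes are Terc-/- over WT, log2 fold changes carry their standard error, and levels are CPM scaled by the trimmed mean of M-values. Counts of list members given below are to be read beside the 20.7% and 20.8% of all genes. Most changes were small. The 3 libraries of one genotype all lay above the 3 of the other in 21.7% of genes for Terc-/- and in 20.4% for WT. The median absolute log2 fold change of the genes called was 0.42, and 1883 of the higher and 2368 of the lower genes differed by less than 1.5-fold. At least 2-fold changes numbered 563 higher (3.68%) and 308 lower (2.01%), and 4-fold or larger ones 82 higher and 74 lower. Across all genes the median log2 fold change was -0.0012. With library totals in place of scaling factors the median was -0.082 and the split became 2416 higher and 4218 lower.

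The 15 genes with the lowest fold change were read among those with at least 5 CPM in WT, no overlap between groups and a name that is not a clone number. Of these, Car2, Ctsk and Acp5 serve resorption, Ocstamp and Dcstamp fusion, Oscar costimulation, and Prdm1 and Jdp2 transcription. Mst1r encodes a receptor tyrosine kinase and was read in the fusion list. Scin (scinderin, an actin-severing protein of osteoclasts), Kbtbd11, Rufy4, Spns2, Cyp2s1 and Pgf made up the rest.

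Ctsk, encoding the collagen-degrading cathepsin K, stood at 85.2, 56.8 and 75.5 CPM in the Terc-/- libraries and at 568, 558 and 550.3 CPM in WT. The groups were far apart relative to their spread, and Ctsk was 7.68-fold lower in Terc-/- (log2 -2.94 ± 0.09, adjusted p = 3.29e-23 by edgeR). Acp5, the tartrate-resistant acid phosphatase by which osteoclasts are stained, was at 95.1, 81.3 and 93.3 against 488, 494 and 466 CPM, a 5.36-fold fall. Carbonic anhydrase 2 (Car2), which supplies protons for acid secretion, fell 10.6-fold, from 14.5, 15.6 and 17.4 CPM in WT to 1.70, 1.30 and 1.45 CPM. Mmp9, a gelatinase of osteoclasts, fell less, 2.59-fold, with 290.3, 303 and 323 against 734, 815 and 829.5 CPM.

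Not all of the resorption machinery moved down. Among 18 listed proteases and acid-secretion genes 6 rose and 11 fell, with a median log2 fold change of -0.42. Ctsb, the general lysosomal cathepsin B, rose 1.72-fold (14063, 12606 and 13462 against 8174, 7924 and 7282 CPM), and Lamp1, a lysosomal membrane protein found at the ruffled border, rose 1.26-fold. The summed level of the list, most of it from Ctsb, was above WT, at 18020 to 19623 against 14203 to 15078 CPM, although more of its members fell than rose. The 18 V-ATPase subunits tested showed little: 3 rose and 4 fell, with a median of 0.0014. Atp6v0d2, the subunit induced in osteoclasts and needed for fusion, fell 1.73-fold (149, 126 and 131 against 232, 248 and 223 CPM), whereas Atp6v0a1, a subunit used in other cells, rose 1.39-fold. Tcirg1, the osteoclast form of the same subunit family, gave 970.4, 1025 and 1041 against 1088, 1125 and 1095 CPM and did not pass (log2 -0.12 ± 0.05, adjusted p = 0.0606 by edgeR), although its groups did not overlap; with library totals alone it did (log2 -0.20, adjusted p = 0.00086).

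**Figure D1:**
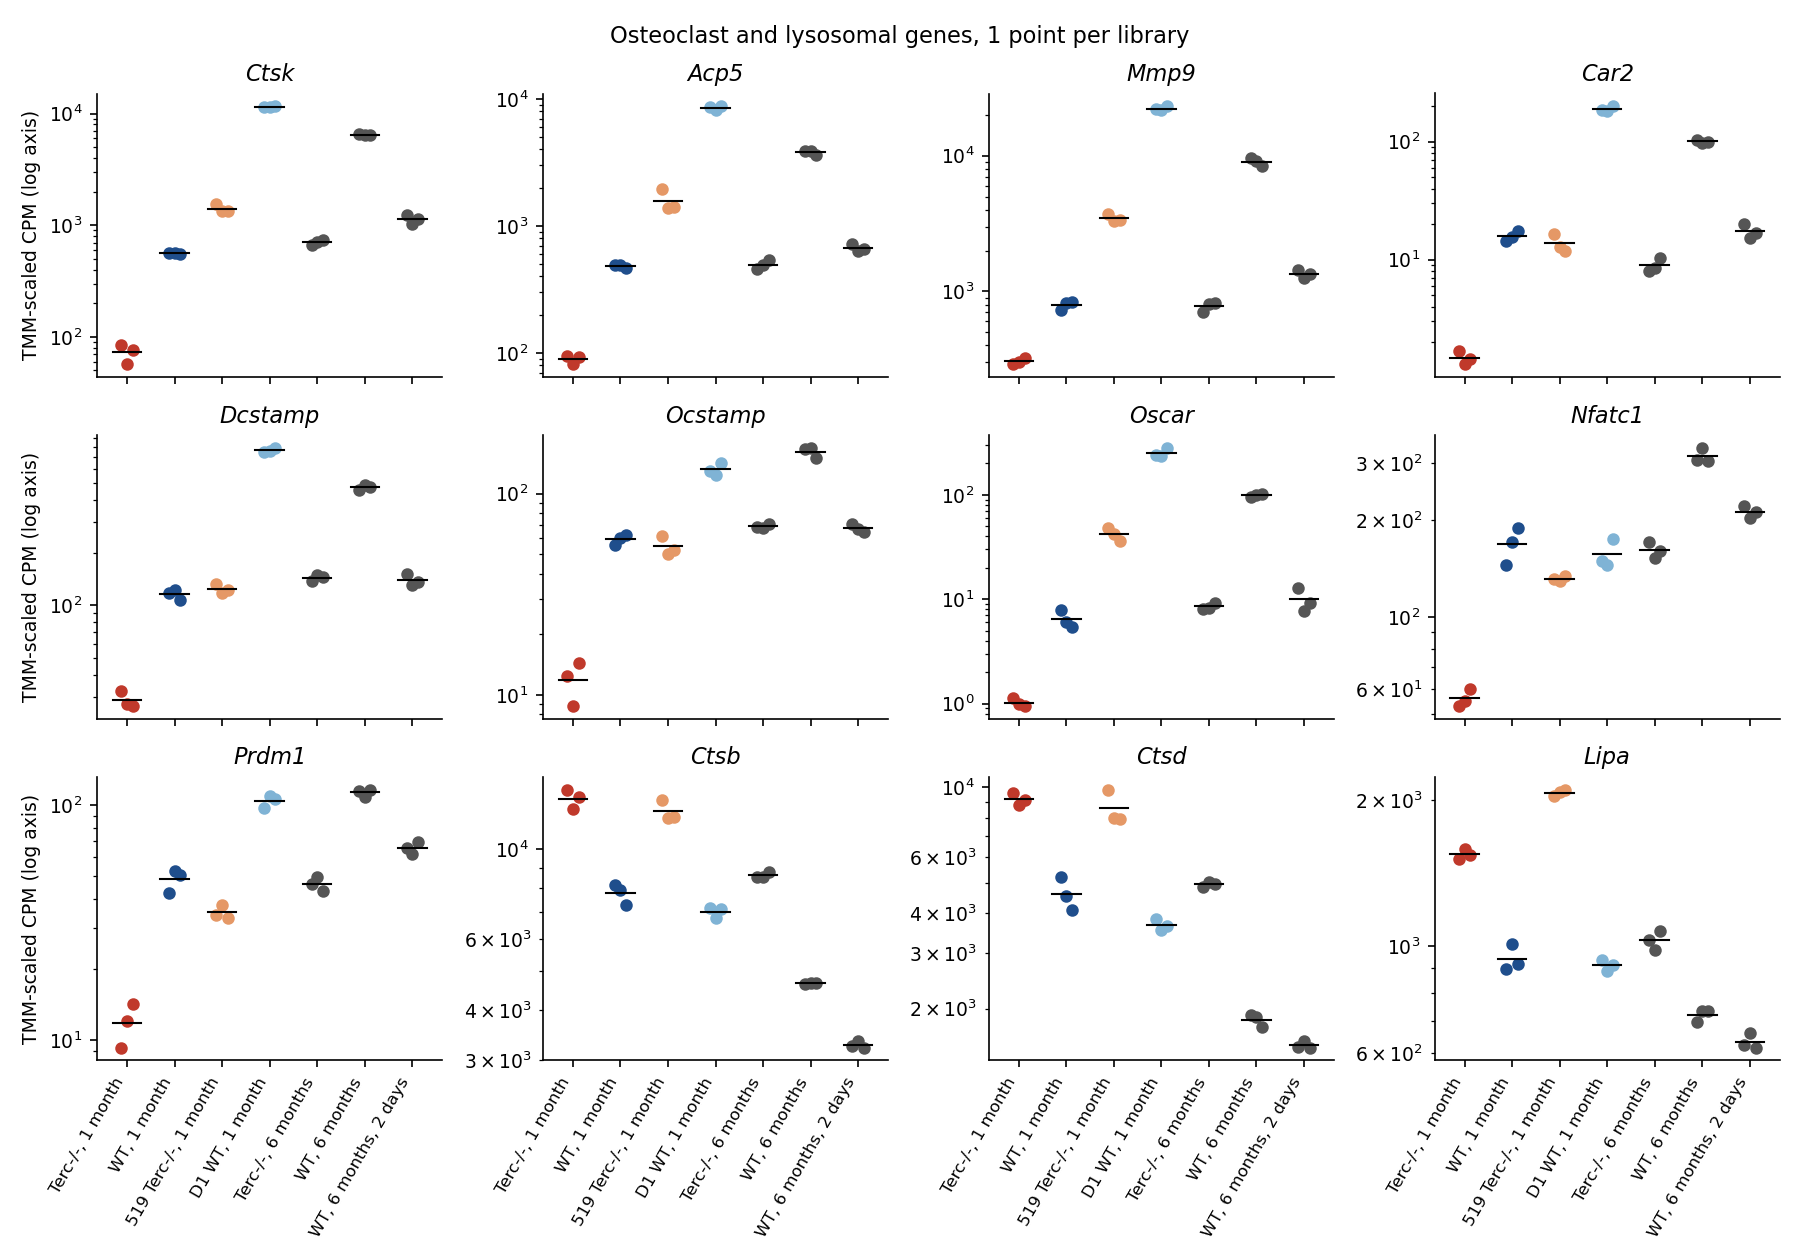
Level of 12 genes in CPM scaled by the trimmed mean of M-values (log axis), 1 point per library and a bar at the mean of 3. Red and dark blue are the Terc-/- and WT libraries compared; pale colours are the 1-month libraries with a 519 or D1 tag; grey are 6-month cultures. The Terc-/- points lie lowest for the first 9 genes, and the D1 WT points highest for 6 of these 9, Ocstamp, Nfatc1 and Prdm1 being highest in 6-month WT.

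Fusion genes split by kind. The receptor tyrosine kinase gene Mst1r, a member of the list rather than a fusion protein, fell 10.3-fold (1.90, 1.49 and 2.10 against 18.2, 19.9 and 19.4 CPM). Ocstamp, a membrane protein required for cell fusion, fell 4.95-fold, with 12.4, 8.82 and 14.3 against 55.5, 60.5 and 62.0 CPM. Dcstamp, its partner in fusion, fell 4.01-fold, with 32.5, 27.2 and 26.7 against 118, 122 and 108 CPM. In the same list Trem2, a phagocytic receptor that also costimulates osteoclasts, rose (log2 0.68 ± 0.07), the metalloprotease Adam8 rose 1.46-fold and the "do not eat me" receptor Sirpa rose 1.37-fold. Over all 19 fusion genes tested, 10 rose and 7 fell, with a median of 0.12.

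Attachment and signalling genes moved in both directions, as did all genes tested, of which 20.7% rose and 20.8% fell. Of 32 attachment and podosome genes 9 rose and 13 fell. Dock5, a Rac activator needed for the sealing zone, was at 71.8, 107 and 88.6 against 155, 217 and 212 CPM and fell 2.19-fold. Src, the kinase without which osteoclasts form no ruffled border, fell 1.76-fold, while Spp1 (osteopontin), a bone matrix ligand that macrophages also secrete, rose 1.78-fold from 4762, 4387 and 4548 to 8534, 8207 and 7632 CPM. Among 32 receptor and adaptor genes of the RANK, M-CSF and ITAM pathways 12 rose and 7 fell, the falls near the share of all genes. Oscar, the collagen receptor that costimulates osteoclasts, fell 6.22-fold to 1.12, 0.993 and 0.949 CPM from 7.88, 6.01 and 5.44 CPM. Tnfrsf11a, the RANKL receptor, fell only 1.31-fold, and the Fc receptor genes Fcgr3 and Fcgr1, which macrophages share, rose 1.59-fold and 1.58-fold.

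Transcription factors of the osteoclast program fell more often than they rose, 14 against 8 of 28 tested. Nfatc1, the master regulator induced by RANKL, was at 53.1, 55.1 and 59.8 against 146, 171 and 189 CPM, a 3.01-fold fall. Prdm1 (Blimp1), which silences repressors of the fate, fell 4.09-fold, from 48.5 ± 5.33 to 11.9 ± 2.50 CPM (SD, n = 3). The AP-1 family member Jdp2 fell 3.72-fold, Ppargc1b, a coactivator of mitochondrial biogenesis, 3.07-fold, and Fosl2 2.29-fold. Spi1 (PU.1), needed in macrophages and osteoclasts alike, did not pass (log2 -0.12 ± 0.08) but did with library totals alone (log2 -0.20, adjusted p = 0.0207 by edgeR), and Junb did not pass. The myeloid factor Cebpa rose 1.91-fold, with 108, 94.4 and 111 against 56.7, 56.2 and 51.5 CPM.

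Repressors of osteoclast formation gave 8 higher and 2 lower of 17 tested. Irf8, which Prdm1 represses, was at 113, 104 and 112 against 66.4, 65.5 and 58.7 CPM and rose 1.73-fold. Bcl6, a transcriptional repressor, rose 1.34-fold, whereas Zeb1 fell 1.68-fold. Rbpj, a further repressor, did not pass (log2 0.04 ± 0.05).

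Lysosomal genes rose together, and they did so in small steps. Of 38 tested, 32 rose and 2 fell, with a median log2 fold change of 0.35. Ctsd, the aspartic protease cathepsin D, rose 1.98-fold to 9568, 8751 and 9113 CPM from 5188, 4538 and 4094 CPM. Ctsh, another cathepsin, rose 2.24-fold, Lipa, the lysosomal acid lipase, 1.65-fold, and Gla, the alpha-galactosidase, 1.53-fold. Arsb, an arylsulfatase, went the other way, at 33.4, 36.8 and 38.4 against 44.2, 68.0 and 66.8 CPM. Of 34 autophagy and lysosomal mTORC1 genes 22 rose and 2 fell, with a median of 0.19. Rragd, a GTPase that brings mTORC1 to the lysosome, rose 2.34-fold, and Sqstm1 (p62), an autophagy receptor, 1.71-fold, with 1422, 1265 and 1471 against 846, 812 and 769 CPM.

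The E-box CACGTG is read by the MITF and TFEB factors, which drive lysosomal genes in many cells and to which the osteoclast regulator MITF belongs. RefSeq sequence for the 250 bases before annotated starts (GRCm38.p6) was matched to 10869 of the genes tested, and CACGTG, which reads the same on both strands, was found before 9.61% of them, before 10 of 31 lysosomal genes (32.3%) and before 7 of 29 autophagy genes (24.1%). All genes that rose held it in 10.1% and all that fell in 10.1%. The 3 windows shown belong to the genes of both lists that rose most among those at 5 CPM or more whose window holds CACGTG and no annotated exon. They are given 5′ to 3′ on the strand of the gene with the E-box in capitals: Ctsl, encoding cathepsin L (chr13:64370521-64370770, minus strand), Lamtor4, a subunit of the Ragulator scaffold (chr5:138255232-138255481, plus strand) and Fnip1, a partner of folliculin (chr11:54437929-54438178, plus strand).
Ctsl: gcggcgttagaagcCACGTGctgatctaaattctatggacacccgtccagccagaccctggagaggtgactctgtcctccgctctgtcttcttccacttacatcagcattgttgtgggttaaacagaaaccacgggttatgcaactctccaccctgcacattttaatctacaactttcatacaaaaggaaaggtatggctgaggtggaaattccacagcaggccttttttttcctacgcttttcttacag
Lamtor4: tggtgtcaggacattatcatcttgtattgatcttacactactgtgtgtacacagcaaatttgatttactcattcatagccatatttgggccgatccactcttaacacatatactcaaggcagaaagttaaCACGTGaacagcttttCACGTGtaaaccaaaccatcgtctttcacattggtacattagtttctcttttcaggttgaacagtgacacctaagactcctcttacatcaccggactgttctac
Fnip1: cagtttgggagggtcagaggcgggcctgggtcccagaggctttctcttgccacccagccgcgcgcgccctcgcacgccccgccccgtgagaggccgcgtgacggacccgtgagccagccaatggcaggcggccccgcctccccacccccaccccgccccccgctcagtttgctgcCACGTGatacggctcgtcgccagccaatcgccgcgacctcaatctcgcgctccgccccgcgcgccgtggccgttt
Lamtor4 holds the E-box 2 times, 104 and 120 bases before the start, Ctsl 1 time and Fnip1 1 time. Ctsl rose 1.42-fold, with 5373, 4328 and 4625 against 3849, 3225 and 3005 CPM. Lamtor4 rose 1.27-fold and Fnip1 1.27-fold, and among these 3 genes the genotypes overlapped for Lamtor4. Lamtor4 did not pass without Terc-/- library 1 (adjusted p = 0.0646 by edgeR) or with the 6 libraries alone (0.0845). Windows in introns were not left out, so a window may lie inside a gene, and the end of the Ctsl window reads like an intron end. A match describes these letters in this window and not a bound site.

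Macrophage genes were higher in Terc-/- on balance. Of 29 macrophage and monocyte genes 23 rose and 1 fell, with a median log2 fold change of 0.59. Cd36, a scavenger receptor for oxidised lipid, rose 2.30-fold, with 2081, 2090.3 and 2018 against 926, 916 and 852 CPM. Marco, a scavenger receptor for bacteria, rose 2.49-fold, Clec7a, the beta-glucan receptor dectin-1, 2.76-fold, and Mertk, which takes up apoptotic cells, 2.35-fold. No library of one genotype reached the other for any of these 4. Clec4a3 fell 1.54-fold, and the fractalkine receptor Cx3cr1 did not pass (log2 0.11 ± 0.09).

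Tissue macrophage genes showed the highest median of these lists, 0.86, and 18 of 22 tested rose with none falling. Cd5l, a secreted scavenger protein, was at 173, 171 and 174 against 42.2, 40.3 and 37.4 CPM, a 4.32-fold rise. Slc40a1 (ferroportin), which exports iron from macrophages, rose 3.92-fold to 203, 221 and 192 CPM from 56.1, 51.5 and 49.5 CPM. Apoe, the lipid carrier, rose 3.01-fold, and C1qa, a chain of the complement starter C1q, 1.53-fold. Pf4, a platelet and macrophage chemokine, overlapped between groups (259, 206 and 222 against 271, 153 and 168 CPM) but passed with no filter and without WT library 1 (log2 0.51, adjusted p = 0.0011 by edgeR).

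Lipid handling followed in part. Of 18 genes of LXR signalling and lipid efflux, 12 rose and 2 fell, with a median of 0.55. Nr1h3, which encodes the oxysterol receptor LXR alpha, rose 1.72-fold, with 74.0, 64.1 and 73.1 against 42.7, 44.0 and 36.6 CPM. Fabp4, a fatty acid carrier of macrophages and fat cells, rose 3.04-fold. Abcg1, a cholesterol exporter and an LXR target, fell 1.26-fold. Of 24 cholesterol synthesis genes 3 rose and 6 fell, beside 20.7% and 20.8% of all genes tested.

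Innate receptors, chemokines and cytokines were higher on balance. Of 28 pattern recognition genes 20 rose and 1 fell; Tlr13, a sensor of bacterial ribosomal RNA, rose 1.81-fold and Cd14, the endotoxin co-receptor, 1.78-fold, while Tlr4 did not pass but did with no filter and without Terc-/- library 1 (log2 0.23, adjusted p = 0.0230 by edgeR). Of 33 chemokine and chemoattractant receptor genes 15 rose and 3 fell. Fpr1, a receptor for bacterial peptides, rose 2.42-fold, with 101, 105 and 106 against 48.9, 36.3 and 43.7 CPM, and Ccr1, a chemokine receptor of osteoclast precursors, fell 1.61-fold. Of 34 cytokine and receptor genes 20 rose and 3 fell. Csf3r, the G-CSF receptor, rose 2.29-fold, and Tgfbi, a matrix protein induced by TGF-beta, fell 2.24-fold, with 321, 311 and 334 against 725, 694 and 741 CPM.

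Interferon-stimulated genes stood closer to the background: 12 of 38 rose and 3 fell, with a median of 0.17. Ifit3, an antiviral effector, rose 1.46-fold and Gbp7, a guanylate-binding protein, fell 1.64-fold. Among 34 extracellular proteases and inhibitors 20 rose and 4 fell. Mmp13, a collagenase, rose 3.13-fold, with 124, 129.6 and 119.9 against 45.1, 37.6 and 36.7 CPM, and the macrophage elastase Mmp12 rose 2.14-fold, both opposite to Mmp9. Igf1, a growth factor that macrophages and osteoclasts release, rose 2.08-fold.

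Markers of other cells were read beside these lists. Of 4 neutrophil markers tested, of 14 listed, 2 rose: S100a8 2.96-fold and Lcn2 2.79-fold, both also made by macrophages. The summed level of the 14 was 104 to 108 CPM in Terc-/- and 51.2 to 62.6 CPM in WT, and the defining markers Ly6g and Retnlg were at 0 in all 6 libraries. Stromal markers rose in 13 of 22 and fell in 1, their sum lying between 888 and 1030 CPM in Terc-/- against 712 to 757 CPM in WT. Their log2 fold changes ran from -3.24 to 2.24, so the largest change in the list was downward. Dcn (decorin), a proteoglycan of fibroblasts, rose 4.73-fold, with 26.3, 21.5 and 27.6 against 5.63, 5.53 and 4.87 CPM, whereas Col1a1, the main bone collagen chain, did not pass (log2 0.17 ± 0.09) but passed with no filter and without Terc-/- library 1 (log2 0.28, adjusted p = 0.0122 by edgeR). The 10 dendritic cell markers summed to 178 to 184 against 76.2 to 98.7 CPM, with 1 of 6 tested rising. T, B, mast and erythroid lists had 1 to 3 genes tested, and Cd3d, Nkg7 and Fcer1a were at 0 in all 6. The part of these cells in the results above was not tested.

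**Figure D2:**
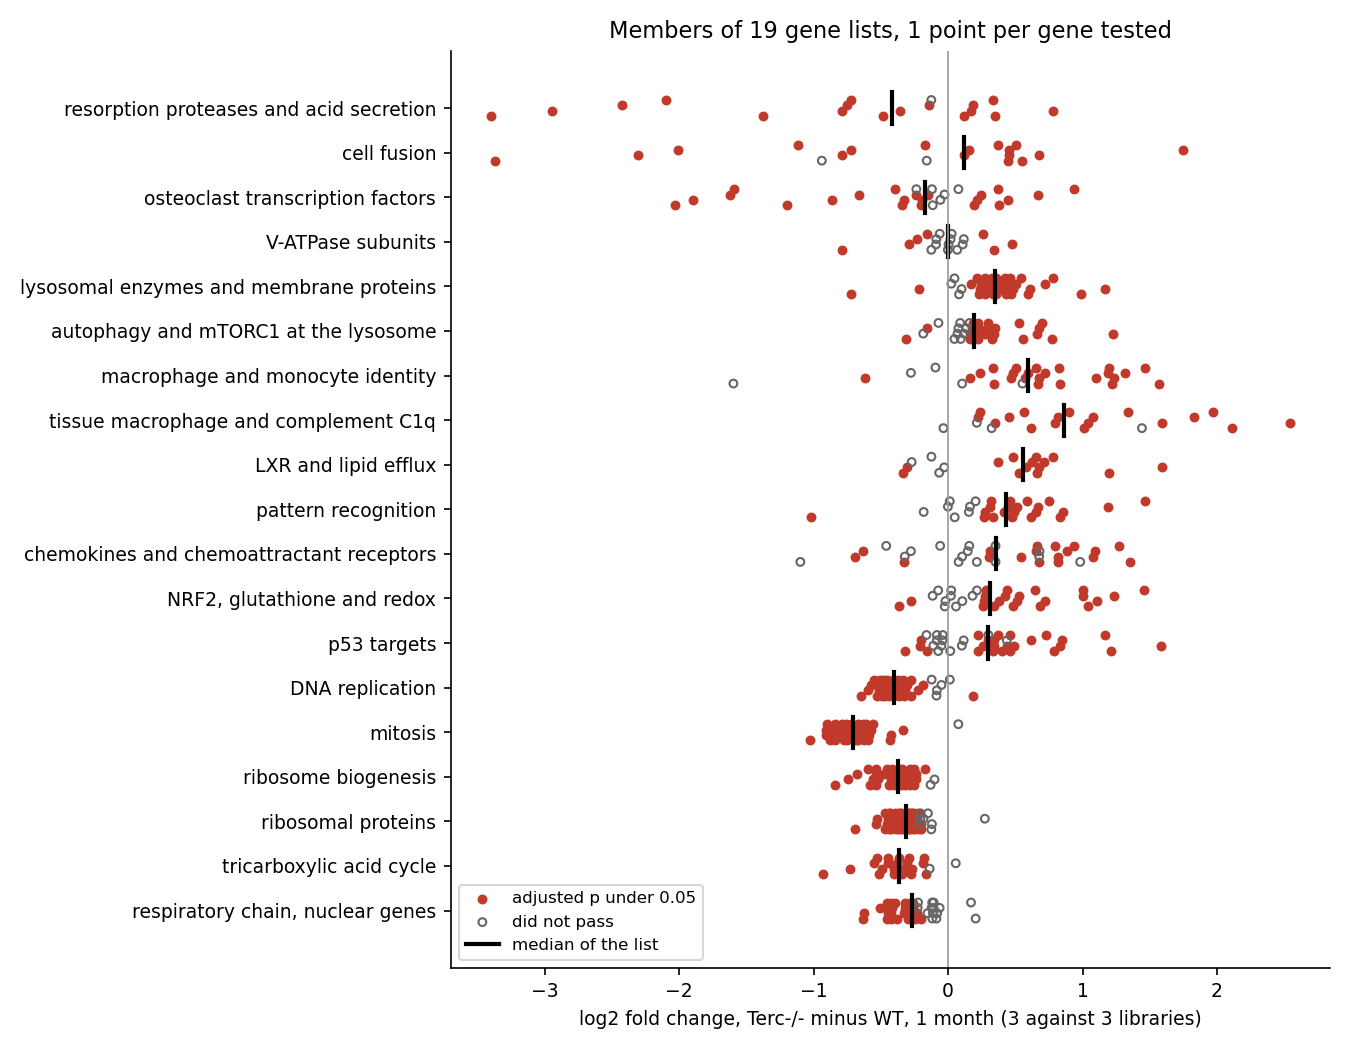
Log2 fold change, Terc-/- minus WT at 1 month, of each tested member of 19 gene lists (1 point per gene; filled, adjusted p under 0.05 by edgeR; open, did not pass; black bar, median of the list). Resorption and fusion genes spread from -3.40 to 1.74, lysosomal and macrophage lists lie to the right of 0, and the mitosis, DNA replication, ribosome and mitochondrial lists to the left.

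Redox genes, targets of NRF2 among them, rose in 20 of 32 and fell in 2, with a median of 0.31. Hmox1, which breaks down haem, was at 3126, 2747 and 3018 against 1371, 1217 and 1201 CPM, a 2.35-fold rise. Prdx5 rose 2.16-fold, Prdx1 2.00-fold and Gstm1 2.00-fold, all enzymes that remove peroxides or electrophiles. Txn1 (thioredoxin) and Sod1 (superoxide dismutase), in the same list, fell 1.29-fold and 1.21-fold. Sod1 did not pass without Terc-/- library 2 (adjusted p = 0.0520 by edgeR), without WT library 1 (0.0530) or with the 6 libraries alone (0.0658). Amino acid supply split: the cystine importer Slc7a11 rose 2.06-fold, while the glutamine importer Slc1a5 fell 2.17-fold, with 69.4, 70.7 and 68.4 against 143, 156 and 153 CPM. Slc7a5, an importer of large neutral amino acids, fell 2.22-fold and Psat1, of serine synthesis, 1.78-fold. The stress factor Atf3 rose 2.04-fold.

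Cell division genes were lower in Terc-/-. Of 40 mitosis genes 39 fell, with a median log2 fold change of -0.70, and Pttg1 did not pass. Cdc20, which activates the anaphase-promoting complex, fell 2.03-fold to 50.2, 46.1 and 53.5 CPM from 105, 96.9 and 103 CPM. Mki67, the proliferation antigen Ki-67, was at 228, 298 and 268 against 410.0, 506 and 560.4 CPM. Ccnb1, a mitotic cyclin, fell 1.83-fold, and Mybl2, a transcription factor of late cell-cycle genes, 2.00-fold.

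DNA replication genes fell in 35 of 41 tested, but by less, with a median of -0.40. Mcm5, a subunit of the replicative helicase, was at 173, 185 and 196 against 239, 256 and 254 CPM, a 1.35-fold fall. Pcna, the replication clamp, was the exception and rose 1.14-fold. It did not pass without WT library 4 (adjusted p = 0.0730 by edgeR), with library totals alone (0.0825) or with the 6 libraries alone (0.0989). Of 34 cyclins, E2F factors and inhibitors 6 rose and 13 fell; the G1 cyclin genes Ccnd1 and Ccnd2 rose 1.54-fold and 2.08-fold.

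The CCAAT box and the CHR element TTTGAA are sequence elements of late cell-cycle promoters. Read on both strands, the CCAAT box stood in the 250-base window of 26 of 34 mitosis genes (76.5%) against 40.2% of all genes matched, and TTTGAA in that of 15 of 34 (44.1%) against 13.1%; among all genes that fell the shares were 43.3% and 13.3%. The windows shown are those of the 2 mitosis genes with the largest falls whose window holds both elements and no annotated exon: Mki67 (chr7:135716380-135716629, minus strand) and Ccnb2, encoding cyclin B2 (chr9:70421555-70421804, minus strand). Capitals mark both elements on either strand, 5′ to 3′ on the strand of the gene.
Mki67: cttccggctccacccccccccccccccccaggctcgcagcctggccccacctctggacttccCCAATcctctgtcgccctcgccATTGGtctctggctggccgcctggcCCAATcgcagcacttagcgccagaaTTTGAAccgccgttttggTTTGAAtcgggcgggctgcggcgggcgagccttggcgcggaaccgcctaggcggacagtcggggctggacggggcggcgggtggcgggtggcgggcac
Ccnb2: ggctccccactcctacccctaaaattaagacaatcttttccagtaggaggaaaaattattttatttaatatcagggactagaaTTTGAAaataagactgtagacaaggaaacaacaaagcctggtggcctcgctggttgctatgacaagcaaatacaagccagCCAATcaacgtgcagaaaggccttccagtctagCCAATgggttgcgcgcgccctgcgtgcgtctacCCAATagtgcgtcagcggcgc
The Mki67 window holds 5 matches, 98 to 188 bases before the start, and the Ccnb2 window 4, 21 to 167 bases before it. Ccnb2 fell 1.70-fold, with 53.2, 45.1 and 51.4 against 87.6, 85.2 and 83.0 CPM, and Mki67 fell 1.86-fold.

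Telomere genes were read because Terc is the deleted gene. Of 24 telomerase, shelterin and telomere replication genes tested 1 rose and 9 fell, with a median of -0.14. Dkc1 (dyskerin), which binds and stabilises Terc and other H/ACA RNAs, was at 55.9, 54.3 and 47.6 against 89.7, 96.8 and 96.3 CPM, a 1.79-fold fall. Its partners Gar1 and Nhp2 fell 1.68-fold and 1.39-fold, and Terf1, the shelterin protein TRF1, fell 1.49-fold. Tnks (tankyrase), which modifies TRF1, was the 1 gene that rose, with overlapping libraries. It did not pass without Terc-/- library 2 (adjusted p = 0.228 by edgeR), without WT library 1 (0.0901) or with paired title numbers (0.0965). Nor did it pass with library totals alone (adjusted p = 0.0894 by edgeR) or with the 6 libraries alone (0.157).

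Among 38 targets of p53, 21 rose and 4 fell, with a median of 0.30. Cdkn1a (p21), the cell-cycle inhibitor, rose 1.32-fold, with 746, 719 and 737 against 594, 542 and 530.3 CPM. Eda2r, a death-domain receptor, was at 4.96, 4.28 and 5.04 against 0.979, 1.96 and 1.80 CPM, a rise of 1.58 ± 0.18 on the log2 scale, and the kinase gene Plk2 rose 2.32-fold. Mdm2, the ubiquitin ligase that limits p53, did not pass (log2 0.10 ± 0.05, adjusted p = 0.0718 by edgeR), but did with RLE scaling (0.0383), with a filter of 5 CPM (0.0206) and with DESeq2 (0.0139). Bax, which opens mitochondria in apoptosis, did not pass, and Trp53 itself fell (log2 -0.32 ± 0.06). DNA damage response genes fell in 28 of 40 with none rising; H2afx, the histone marked at breaks, fell 1.88-fold. Members of the Bcl2 and caspase list went both ways, 12 up and 11 down of 35: the survival gene Bcl2l1 rose 1.45-fold, and the pro-death gene Bmf and the pore-former Gsdmd fell 2.22-fold and 1.59-fold.

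**Figure D3:**
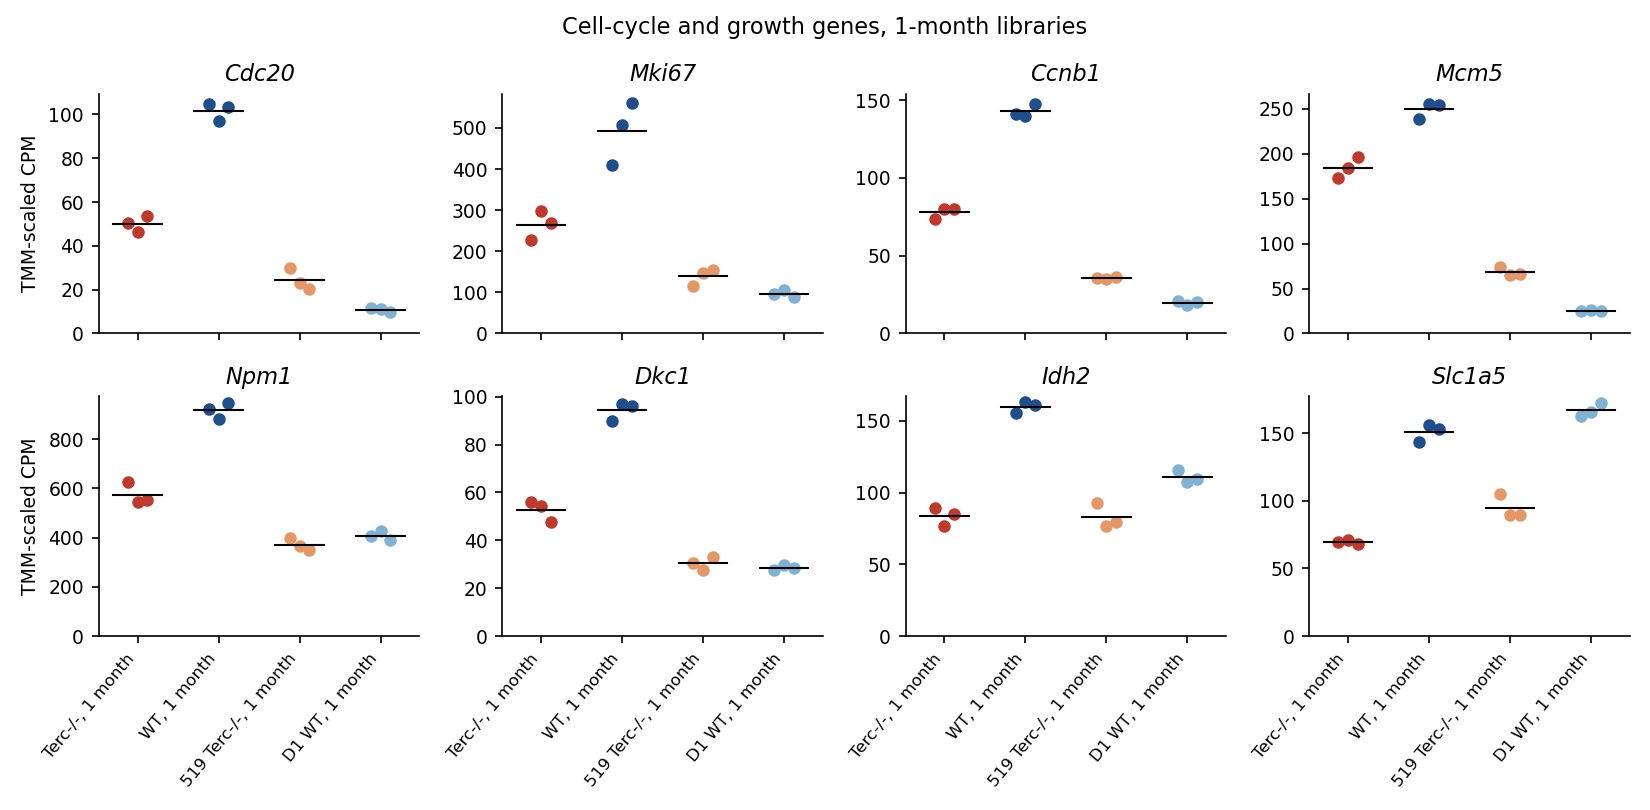
Level of 8 cell-cycle and growth genes in CPM scaled by the trimmed mean of M-values (linear axis from 0), 1 point per library and a bar at the mean of 3, in the 4 groups of 1-month libraries. Red points (Terc-/-) lie below dark blue points (WT) for all 8 genes, while the D1 WT libraries lie below both for Cdc20, Mki67, Ccnb1, Mcm5, Npm1 and Dkc1.

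Genes of protein synthesis fell in small, even steps. Of 38 ribosome biogenesis genes 36 fell and none rose, with a median of -0.37; Npm1 (nucleophosmin), a nucleolar chaperone, was at 624, 545 and 551 against 923, 882 and 944 CPM. Of 67 ribosomal protein genes 59 fell and none rose (median -0.31), with Rpl3 1.44-fold lower. Processed copies share sequence with many ribosomal protein genes, and the counting of shared reads is not stated. Of 20 cytosolic aminoacyl-tRNA synthetase genes 17 fell (median -0.27). Myc, a driver of ribosome production, fell 1.58-fold.

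Mitochondrial genes coded in the nucleus fell likewise. All but 2 of 23 tricarboxylic acid cycle genes fell, with a median of -0.36: Idh2, the NADP-linked isocitrate dehydrogenase, was at 89.1, 76.6 and 85.1 against 156, 163 and 161 CPM, a 1.91-fold fall, and Idh3a of the NAD-linked enzyme fell 1.66-fold. Respiratory chain genes fell in 27 of 41 (median -0.27) and mitochondrial ribosome and import genes in 35 of 40 (median -0.34), with none rising in either list. Of the 13 transcripts of the mitochondrial genome 5 fell and 1 rose; mt-Cytb, the cytochrome b message, fell 1.30-fold and mt-Co1, of cytochrome oxidase, rose 1.16-fold. These transcripts took 1.83% to 1.96% of counts in Terc-/- and 1.96% to 2.09% in WT. Glycolysis showed no common direction, with 7 of 25 higher and 4 lower: Pfkfb3, an activator of glycolysis, rose 2.12-fold and Gapdh did not pass (log2 0.05 ± 0.07).

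The 15 genes with the highest fold change were read by the same rule, which leaves out clone-named genes such as Gm47015, at least 127-fold higher and described further on. The highest of the 15, Jam2, a junctional adhesion molecule, rose 7.13-fold, from 0.783, 0.715 and 0.655 to 5.11, 5.84 and 4.54 CPM. Ptprm, a receptor phosphatase, rose 6.56-fold, and Rasgrp2, an activator of Rap1, 6.53-fold. Beside Dcn, Cd5l and Slc40a1, the 15 included the orphan receptor gene Mrgpre, the noncoding Snhg11, the matrix genes Mgp and Col7a1, Padi4, F13a1, Rab4a, Dab2ip and Pla2r1, all between 3.22-fold and 4.18-fold higher. None of the 15 reached 30 CPM in any Terc-/- library except Cd5l and Slc40a1.

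The other 1-month libraries carry the same genotype and age labels, but between them sex cannot be told apart from genotype. Terc-/- libraries with the 519 prefix against WT libraries with the D1 tag share no library with the comparison above, and 4762 genes were higher (31.1%) and 4774 lower (31.2%), together 62.3%. Of the 3162 genes higher above, 1466 (46.4%, or 30.8% of the 4762) were higher there too and 928 (29.3%) were lower. Of the 3178 lower above, 1278 (40.2%) were lower there and 980 (30.8%) were higher. Depth was lower in the 519 libraries, 4269798 to 12987993 counts, and the control was female.

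Some genes and list medians had the same sign in the 2 pairs. With 519 Terc-/- against D1 WT, Ctsk was at 1412 against 11507 CPM (means of 3), with a log2 fold change of -3.03, close to the -2.94 above, at levels many times higher. Acp5 gave -2.43, Dcstamp -2.63, Prdm1 -1.55 and Jdp2 -1.54. Nfatc1 gave -0.25, against -1.59 above. Among lists with the same sign in both, the median of the resorption list was -1.22, of lysosomal genes 0.21, of autophagy genes 0.28, of LXR genes 0.72, of redox genes 0.39, of p53 targets 0.44, of tricarboxylic acid cycle genes -0.64 and of respiratory chain genes -0.34. Other lists of the same themes had opposite signs: osteoclast transcription factors had a median of 0.32 there against -0.17 above, fusion genes -0.71 against 0.12, RANK, M-CSF and ITAM receptor genes -0.11 against 0.09, and fatty acid oxidation genes -0.14 against 0.03.

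For cell division, growth and chemokine genes the medians had opposite signs in the 2 pairs. Against a median of -0.70 above, mitosis genes had one of 0.68 in 519 Terc-/- against D1 WT, with 34 of 40 higher and 1 lower, and DNA replication genes had one of 0.60. Cdc20 averaged 24.4 CPM in the 519 Terc-/- and 10.9 CPM in the D1 WT libraries, both below the 49.9 CPM of the Terc-/- group above. Ribosomal protein genes had a median of 0.42, chemokine genes one of -0.87 and macrophage identity genes one of -0.30, with Marco at 124 against 2358 CPM. Interferon-stimulated genes were higher in 32 of 38 there, with a median of 1.24.

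Exchanging one side of the comparison moved Ctsk, Acp5, Mmp9 and Oscar by more than their genotype difference. The 519 Terc-/- libraries lay above the untagged WT libraries for Ctsk (log2 1.34), Acp5 (1.71), Mmp9 (2.12) and Oscar (2.72). The untagged Terc-/- libraries lay below D1 WT, with a log2 fold change of -7.30 for Ctsk. These exchanges share a group with the first comparison and are given only side by side with it. Lysosomal genes had medians of 0.37 and 0.27 in the 2 exchanges and LXR genes 0.51 and 0.51, and tricarboxylic acid cycle genes -0.21 and -0.77, each on the same side of 0 as in the first comparison. Among 49 list medians the sign turned in 16 with 519 Terc-/- against WT and in 23 with Terc-/- against D1 WT.

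**Figure D4:**
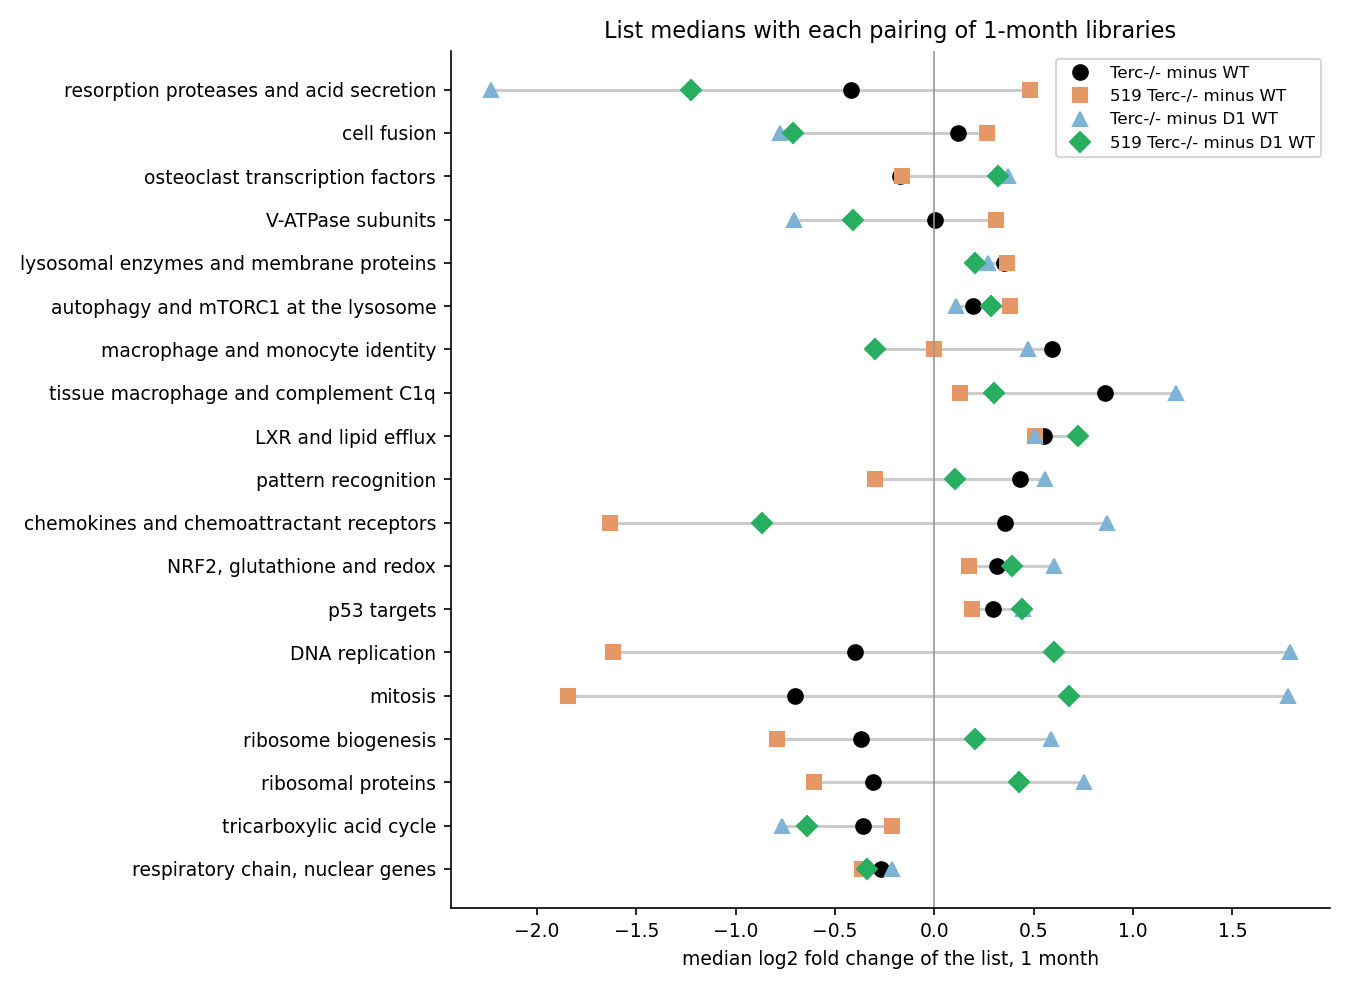
Median log2 fold change of 19 gene lists with each pairing of the 1-month libraries (black circle, the comparison described; orange square, 519 Terc-/- against WT; blue triangle, Terc-/- against D1 WT; green diamond, 519 Terc-/- against D1 WT). All 4 medians lie on one side of 0 for the lysosomal, autophagy, tissue macrophage, LXR, redox, p53, tricarboxylic acid cycle and respiratory chain lists, and on both sides for mitosis, where they run from -1.85 to 1.78.

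The genotype difference at 1 month was also set against that at 6 months in untagged libraries, for 14 genes. In untagged 6-month cultures Terc-/- lay below WT for Ctsk (log2 -3.20), Acp5 (-2.95), Mmp9 (-3.53), Dcstamp (-1.71) and Nfatc1 (-0.97). For Ctsk the level at 1 month in WT, 559 ± 8.61 CPM (SD, n = 3), was near the untagged 6-month Terc-/- mean of 703 CPM. With the 519 prefix, 6-month Terc-/- averaged above WT for Acp5 (5885 against 3798 CPM), Mmp9 (13083 against 9048) and Dcstamp (520 against 471). Those libraries averaged below WT for Ctsk (5780 against 6473 CPM) and Nfatc1 (244 against 316). The direct test of the difference between ages, edgeR's interaction term, passed for 13 of the 14, and for 48.6% of all genes. The 14 were chosen with earlier results of these data known, so the 2 shares are not a test of the 14. Of the 13, Cd36 no longer passed in 6 of 12 fits that left out 1 library, and Dcstamp in 1 of 12, without 1-month Terc-/- library 4. Ctsk, which did not pass, did without 1-month Terc-/- library 2 (difference 0.40, adjusted p = 0.00032 by edgeR) and without 6-month Terc-/- library 3 (0.30, adjusted p = 0.0388). The effect at 1 month minus that at 6 months was -0.62 on the log2 scale for Nfatc1 and 2.16 for Mmp9. The division genes had opposite signs in the untagged libraries, Cdc20 with -1.02 at 1 month and 0.52 at 6 months, and Mcm5 with -0.43 and 0.61. At 6 months Cdc20 averaged 84.0 CPM in untagged Terc-/-, 41.4 CPM in 519 Terc-/- and 58.5 CPM in WT. With the 519 libraries it thus lay below WT at 6 months.

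Some genes stood apart in both sets of 1-month Terc-/- libraries, and these were chosen after their values were seen. In 345 genes all 6 such libraries, tagged or not, lay above all 24 other libraries of the series, and in 188 they lay below (3.48% of those tested together). The 24 include the 6-month Terc-/- libraries, with and without the 519 prefix. Slc40a1 was among those above. The clone-named gene Gm47015 (chr10:79412962-79417905, minus strand) had 348 counts over the Terc-/- libraries and 247 over the 519 Terc-/- libraries, and 0 in the other 24. Against a floor of 3 counts over the WT group it was at least 127-fold higher, and with DESeq2 it did not pass (adjusted p = 0.254). Gm8189 (chr19:8473313-8541798, minus strand) had 182 and 128 counts, and 0 in the other 24, at least 66.5-fold higher on the same floor. The Y-linked Eif2s3y, a translation initiation factor gene, fell 3.47-fold, with 21.1, 19.8 and 20.3 against 74.9, 69.1 and 68.5 CPM. Ddx3y on the same chromosome did not pass (67.9 ± 10.4 against 67.0 ± 5.82 CPM, SD, n = 3). In 6-month Terc-/- cultures Eif2s3y averaged 65.2 CPM untagged and 68.6 CPM with the 519 prefix. Clone-named Gm15446 averaged 0.074 CPM in Terc-/- and 8.14 CPM in WT at 1 month. At 6 months untagged Terc-/- averaged 8.61 CPM and WT 0.087 CPM. The cause of these patterns was not tested.

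**Figure D5:**
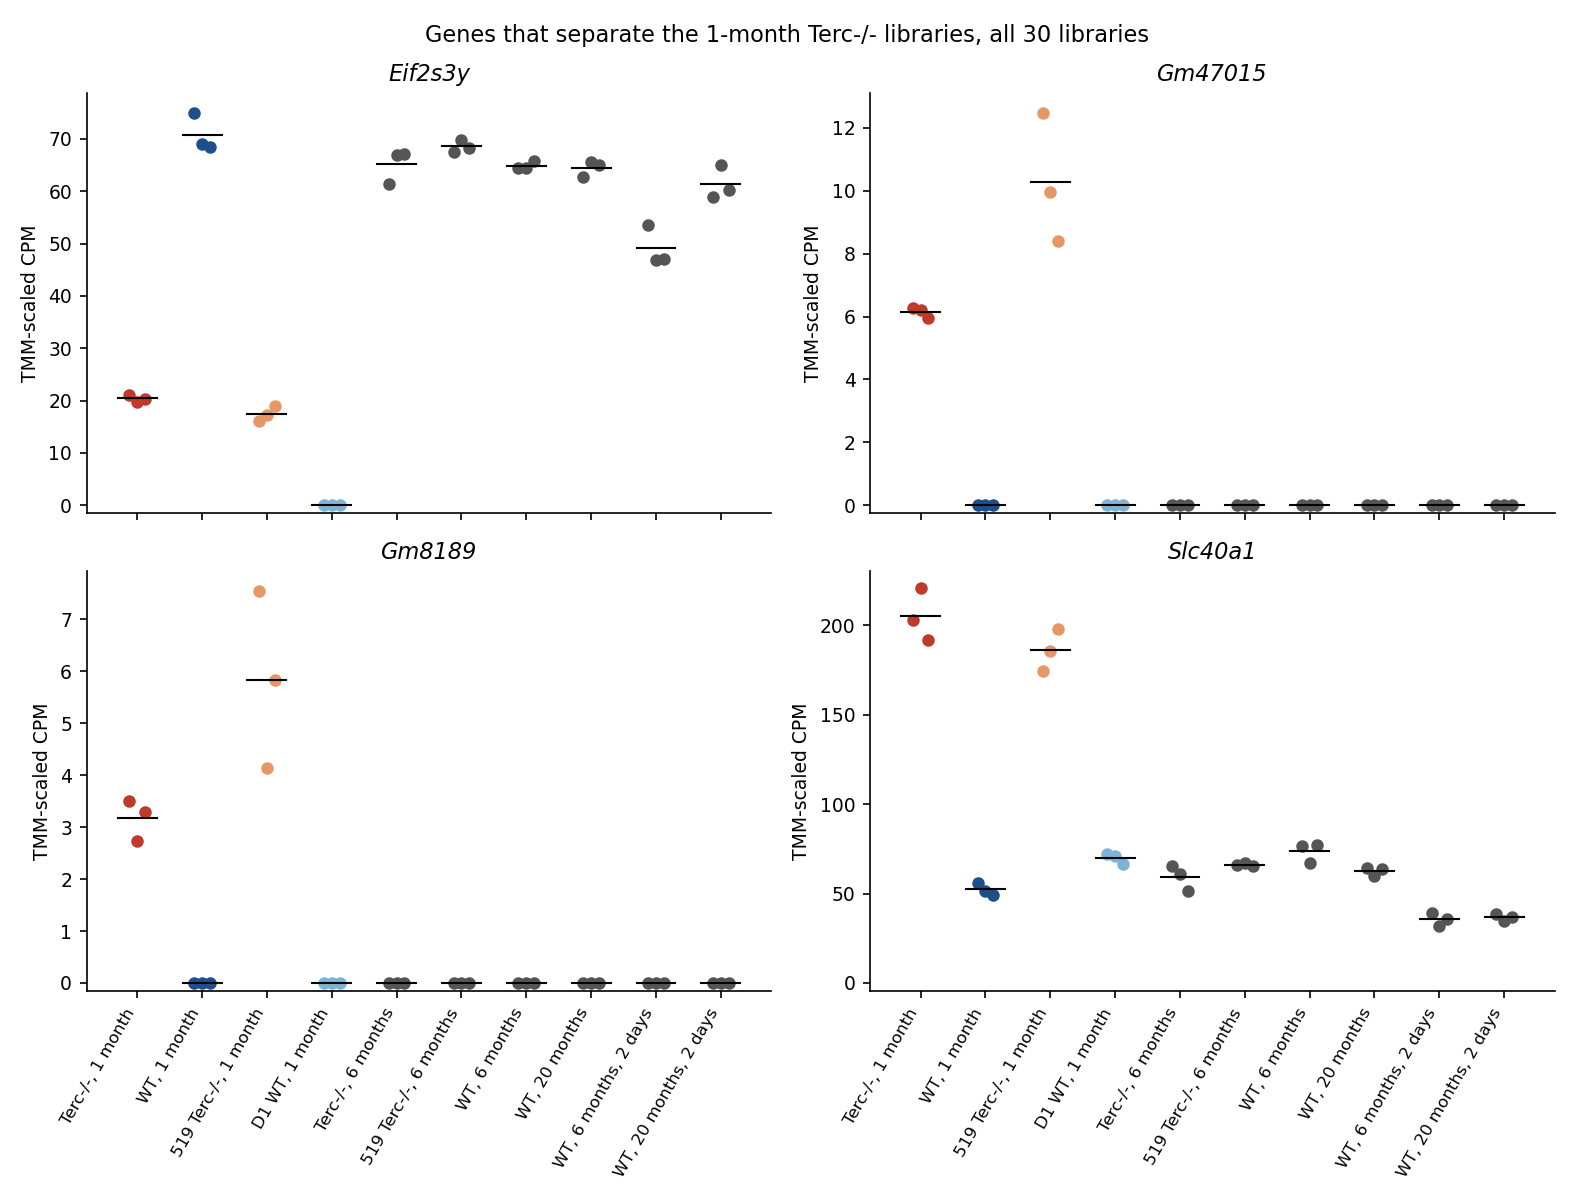
Level of Eif2s3y, Gm47015, Gm8189 and Slc40a1 in CPM, 1 point per library, over the 10 groups of the series. The 6 Terc-/- libraries of 1 month lie apart from the other male libraries for each gene, and Eif2s3y is at 0 in the D1 WT libraries.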

How the data were processed

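RNA from 30 mouse osteoclast cultures was sequenced on an Illumina Novaseq 6000 after oligo(dT) selection, per the labels' protocols. The deposited values are raw counts per gene: paired reads aligned with STAR were counted over exons by featureCounts 1.6.0 with the Ensembl 88 annotation of GRCm38, per the file headers. The submitters' processing notes name HTSeq instead; no strand or multi-mapping option is recorded. The 6 libraries compared held 17336361 to 25147975 counts. Counts were scaled by the trimmed mean of M-values, 35376 of 50686 genes were removed by filterByExpr, and edgeR 4.0.16 (limma 3.58.1, R 4.3.3) fitted 1 coefficient per group over all 30 libraries. The quasi-likelihood test was adjusted by Benjamini-Hochberg over 15310 genes, with a threshold of 0.05. The fit was tested on counts simulated for the 1-month comparison (14529 genes tested). Of genes changed by 1.5-fold, 2-fold and 4-fold, 50 of 50 each were recovered, and 29 of 50 changed by 1.25-fold. Unchanged genes made up 5.29% of calls. The simulation gave every gene the same dispersion and changed few genes, so this share does not carry over to the calls above. Standard errors are the absolute log2 fold change over the square root of F. DESeq2 1.42.0, other scalings and filters, left-out libraries, a replicate block and the other title sets were alternatives. Genes named are the 15 highest and 15 lowest with at least 5 CPM, no overlap and no clone name, and 14 chosen genes. Up to 5 members of each list in either direction and up to 3 that did not pass are also named. Marker genes and the upstream windows shown follow their own rules. Members and lists were chosen with earlier results of these data known. Some items are not reported here. Motifs were searched in RefSeq windows of 250 bases.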

Additional observations from a re-analysis of the deposited data

Results flagged for a closer look

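For 13 of 14 genes read, the genotype effect at 1 month differed from that at 6 months by edgeR's interaction term, adjusted over all genes. The same direct test passed for 48.6% of all genes tested. The 14 were chosen with earlier results of these data known, so the 2 shares are not a test of the 14. The difference of effects (log2 fold change at 1 month minus that at 6 months) was 0.52 for Acp5, 2.16 for Mmp9, -0.29 for Dcstamp and -0.62 for Nfatc1. For the repressor Irf8 it was -0.50, for the scavenger receptor Cd36 -0.17, for the complement gene C1qa -1.17 and for the p53 target Cdkn1a -0.99. For these 8 genes the sign was the same at both ages in the untagged libraries tested, Cd36 for example 1.20 and 1.37. With the 519 prefix, 6-month Terc-/- averaged above 6-month WT for Acp5 (5885 against 3798 CPM), Mmp9 (13083 against 9048) and Dcstamp (520 against 471). The difference for Cd36 no longer passed in 6 of 12 fits with 1 library left out: without 1-month Terc-/- library 4, 1-month WT library 1 or 3, 6-month WT library 2, or 6-month Terc-/- library 1 or 2, with adjusted p from 0.0561 to 0.12 by edgeR. That for Dcstamp did not pass without 1-month Terc-/- library 4 (-0.24). In the untagged libraries the sign differed between ages for Eda2r (1.58 at 1 month and -0.93 at 6 months, difference 2.51), Mcm5 (difference -1.05), Cdc20 (difference -1.55) and Dcn (2.24 and -0.38, difference 2.63). With the 519 prefix, 6-month Terc-/- averaged below 6-month WT for Cdc20 (41.4 against 58.5 CPM), opposite to the untagged libraries. For Dcn it also averaged below WT (22.9 against 34.8 CPM), as the untagged libraries did. Dkc1 was lower in Terc-/- at both ages, -0.84 and -0.23, with a difference of -0.61. Ctsk did not pass (difference 0.26, adjusted p = 0.0515 by edgeR), but did without 1-month Terc-/- library 2 (0.40) or 6-month Terc-/- library 3 (0.30).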

How the results depend on the processing

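No gene called in the comparison was called in the opposite direction under another scaling, filter, test or left-out library. The counts of 3162 higher and 3178 lower stayed within 1.5 times: 3314 and 2991 with RLE scaling, 3175 and 2734 with no filter, 2958 and 2810 with a filter of 5 CPM, 2171 and 2214 with the 6 libraries alone, 3258 and 2964 with DESeq2, and 2730 to 3038 and 2658 to 3042 with 1 library left out. Titles of the genotypes share the numbers 1 and 4. The deviations of same-numbered libraries correlated by 0.26 and -0.0023, and those of differently numbered ones by -0.27 to 0.17. Deviations from a mean of 3 depend on each other, so these values cannot tell whether a number marks a shared animal or day. The replicate block gave 2865 higher and 2871 lower. For 519 Terc-/- against D1 WT the block gave 4377 and 4327, and 1 left-out library 4346 to 4754 and 4321 to 4590. Exchanging libraries moved the counts to 5844 and 5433 (untagged Terc-/- against D1 WT) and to 4762 and 4774 (519 Terc-/- against D1 WT). Of 49 list medians the sign turned in 0 with DESeq2 or RLE, 6 with library totals, 2 with the block and 25 with 519 Terc-/- against D1 WT. It turned in 2 with the 6 libraries alone, 16 with 519 Terc-/- against WT and 23 with Terc-/- against D1 WT. A filter of 5 CPM turned 1 of 48 medians, and leaving out 1 library turned 13 of 294 values. Among differences between ages, Ctsk passed with RLE (0.30) and library totals (0.26), with 0.12 to 0.40 over left-out libraries; Cd36 no longer passed with RLE (-0.14), totals (-0.18) or the 12 libraries alone (-0.16), with -0.21 to -0.14 over left-out libraries; Dcstamp ran from -0.40 to -0.24 and did not pass without Terc-/- library 4. The cause was not tested. The sign turns counted below are of named genes past the threshold in the first comparison, whether or not they passed after the exchange. Of named genes that did not pass in it, 8 passed with the opposite sign with 519 Terc-/- against untagged WT. With untagged Terc-/- against D1 WT 3 did so, and with 519 Terc-/- against D1 WT 6. With 519 Terc-/- against untagged WT the sign turned in 32 of the named genes, to log2 fold changes of Abcg1 0.48, Acp5 1.71, Adam8 -0.24, Arsb 1.20, Atp6v0d2 1.06, Bmf 0.69, C1qa -1.75, Calcr 5.38, Ccnd1 -0.40, Cd14 -0.33, Ctsk 1.34, Ctsl -0.15, Dcstamp 0.095, F13a1 -1.95, Fcgr1 -2.96, Fpr1 -1.80, Ifit3 -1.19, Lamtor4 -0.049, Lcn2 -3.30, Marco -2.64, Mmp13 -0.55, Mmp9 2.12, Mst1r 0.51, Oscar 2.72, Pcna -0.76, Prdx5 -0.43, Rufy4 0.12, S100a8 -0.89, Spns2 0.88, Spp1 -0.0025, Src 0.25, mt-Cytb 0.23. With untagged Terc-/- against D1 WT the sign turned in 36 of the named genes, to log2 fold changes of Abcg1 0.18, Ccnb1 1.97, Ccnb2 2.35, Ccnd2 -0.58, Cdc20 2.20, Clec4a3 0.037, Clec7a -0.27, Col7a1 -0.72, Dcn -0.84, Dkc1 0.88, Eda2r -0.37, Eif2s3y 11.46, F13a1 -1.96, Fnip1 -0.89, Gar1 1.02, H2afx 2.15, Marco -0.29, Mcm5 2.86, Mki67 1.45, Mybl2 2.12, Myc 1.06, Nhp2 0.87, Npm1 0.49, Psat1 0.73, Ptprm -0.66, Rpl3 0.74, Rragd -0.96, Slc7a11 -1.74, Slc7a5 0.57, Sod1 1.31, Terf1 0.94, Tgfbi 0.63, Tnks -0.18, Trp53 0.97, Txn1 0.73, mt-Co1 -1.44. With 519 Terc-/- against D1 WT the sign turned in 48 of the named genes, to log2 fold changes of Abcg1 1.00, C1qa -1.10, Ccnb1 0.83, Ccnb2 1.07, Ccnd2 -1.19, Cd14 -0.16, Cdc20 1.17, Clec4a3 0.025, Col7a1 -1.28, Ctsh -0.56, Dab2ip -0.098, Dcn -0.10, Dkc1 0.062, Eda2r -0.46, Eif2s3y 11.22, F13a1 -5.71, Fcgr1 -0.29, Fnip1 -0.44, Fpr1 -2.83, Gar1 0.34, Gsdmd 0.21, H2afx 1.47, Jam2 -0.45, Lcn2 -2.83, Marco -4.25, Mcm5 1.42, Mgp -0.0022, Mki67 0.52, Mmp12 -0.092, Mmp13 -1.06, Mybl2 0.83, Myc 1.04, Nhp2 0.32, Pfkfb3 -0.75, Psat1 0.059, Ptprm -0.61, Rasgrp2 -0.64, Rpl3 0.44, S100a8 -2.20, Slc7a11 -2.73, Slc7a5 0.96, Sod1 1.32, Spp1 -0.62, Terf1 0.32, Tnks -0.028, Trp53 0.42, Txn1 0.38, mt-Co1 -1.27. The T and NK cell list had no gene left under the filter of 5 CPM.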

Other observations

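Further genes were read in one genotype and nearly absent in the other, and they were chosen after their values were seen. Vmn2r96, a pheromone receptor gene (chr17:18581727-18598157, plus strand), had 69 counts over the Terc-/- libraries and 49 over the 519 Terc-/- libraries of 1 month, and 0 in the other 24, at least 25.2-fold higher against a floor of 3 counts over WT. Sh2d2a, encoding a T cell adaptor, had 3 counts over Terc-/- and 48 over WT.

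Genes near Terc were counted separately. Within 1 Mb of Terc on chromosome 3, 12 of 56 tested genes were higher and 8 lower (35.7%), and within 5 Mb 24 and 20 of 117 (37.6%), against 41.4% of all genes. Ctsk lies 0.905 Mb from Terc in the annotation used.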
